A study of Mus musculus with 41 samples.

Results

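The data concern 41 genes of homologous recombination and DNA damage repair, chosen by name for their roles in repair and read in a table of 27197 genes. All 41 were in the table and all 41 passed the filter on low counts, among 12376 genes tested. RNA of 6 mouse mesothelioma cell lines and 9 mouse mesothelioma tumors was sequenced. BNC lines (JB81, JB91, and JB97) carried Bap1-/-;Nf2-/-;Cdkn2ab-/- and NC lines (JB84, JB87, and JB93) carried Nf2-/-;Cdkn2ab-/-, so loss of Nf2 and of Cdkn2ab was shared and Bap1 was the gene that differed. Mice of a mixed background of C57BL/6, FVB, and 129Ola, a few weeks old and given cyclosporine A in drinking water, received adenovirus with Cre under the ubiquitous CMV promoter in the pleural space. Deletion was therefore not limited by the promoter to 1 cell type, and each line grew out of a piece of tumor. The paper describes the lines of its drug and radiation assays as early passage, and gives no passage for the sequenced lines. The labels do not say that the lines of a group came from separate animals, so p-values measure the spread between these lines, which may in part be technical. Of the 9 tumors, the labels give 5 as BNC and 4 as NC, but the tumor columns of the table cannot be matched to these samples, so tumors are described without groups or tests.

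Homologous recombination repairs a double-strand break by copying the sister chromatid, and so works once DNA has been replicated. The break is sensed by the Mre11-Rad50-Nbn complex and resected to single strands, and Brca1, Bard1, Palb2, and Brca2 then prepare those strands to invade the sister. The Fanconi anemia proteins deal with crosslinks between strands and hand the break to the same machinery, whereas nonhomologous end joining, begun by the Ku proteins Xrcc5 and Xrcc6, rejoins ends without a template. Many recombination and Fanconi genes are transcribed mainly in dividing cells, often under E2F factors. Bap1 is a deubiquitinase with a known role in repair of double-strand breaks, and the comparison asks whether repair genes differ in its absence.

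Promoter sequence is shown for 5 genes. Bard1, Brip1, and Brca2 are the BRCA complex genes that held E2F letters, and Rnf168 and Xrcc5 are the repair genes that passed the test between BNC and NC lines. Each run is the 250 bases before the gene's start in RefSeq (GRCm38.p6), written 5′ to 3′ on the strand of the gene. Capitals mark matches on either strand to the E2F letters TTTNNCGC, to the cell cycle element TTTGAA, and to CCAAT. The windows were chr1:71102973-71103222 (minus strand) for Bard1, chr11:86201194-86201443 (minus strand) for Brip1, chr5:150522371-150522620 (plus strand) for Brca2, chr16:32277211-32277460 (plus strand) for Rnf168, and chr1:72307171-72307420 (plus strand) for Xrcc5.
Bard1: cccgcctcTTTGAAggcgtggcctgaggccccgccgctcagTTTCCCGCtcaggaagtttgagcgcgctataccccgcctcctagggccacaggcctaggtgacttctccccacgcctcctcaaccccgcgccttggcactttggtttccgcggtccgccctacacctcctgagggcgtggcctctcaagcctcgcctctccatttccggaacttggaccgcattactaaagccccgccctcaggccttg
Brip1: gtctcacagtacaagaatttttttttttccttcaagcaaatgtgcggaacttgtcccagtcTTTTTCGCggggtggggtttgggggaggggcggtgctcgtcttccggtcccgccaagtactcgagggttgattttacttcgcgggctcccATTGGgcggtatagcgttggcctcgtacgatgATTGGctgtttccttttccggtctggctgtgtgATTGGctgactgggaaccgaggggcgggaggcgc
Brca2: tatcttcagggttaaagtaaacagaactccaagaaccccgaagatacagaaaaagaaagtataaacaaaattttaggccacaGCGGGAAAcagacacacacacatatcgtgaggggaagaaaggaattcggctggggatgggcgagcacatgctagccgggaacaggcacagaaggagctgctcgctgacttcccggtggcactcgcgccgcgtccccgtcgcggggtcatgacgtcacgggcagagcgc
Rnf168: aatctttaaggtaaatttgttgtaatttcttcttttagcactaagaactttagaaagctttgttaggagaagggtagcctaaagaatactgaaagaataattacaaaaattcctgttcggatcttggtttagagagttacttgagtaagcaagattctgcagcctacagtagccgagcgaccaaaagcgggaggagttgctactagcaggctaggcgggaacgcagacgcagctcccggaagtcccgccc
Xrcc5: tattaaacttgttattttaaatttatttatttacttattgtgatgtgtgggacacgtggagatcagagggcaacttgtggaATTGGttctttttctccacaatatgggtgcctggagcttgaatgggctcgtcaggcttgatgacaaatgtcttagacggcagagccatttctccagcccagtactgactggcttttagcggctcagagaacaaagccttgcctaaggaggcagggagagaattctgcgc

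Bard1 held 1 E2F match and 1 cell cycle element, Brip1 held 1 E2F match and 3 CCAAT boxes, and Brca2 held 1 E2F match. Xrcc5 held 1 CCAAT box, and the Rnf168 window held none of the letters searched. Of the 41 genes, 33 had a promoter in the table, and Exo1, Fancd2, Nbn, Prkdc, Rad50, Rad51d, Rbbp8, and Xrcc2 were not matched. The E2F letters were in 7 of the 33 (21.2%), against 4.94% of all 27025 genes with a promoter. The 7 were Brca2, Bard1, Brip1, Chek2, Fancg, Mdc1, and Xrcc6. The 27025 genes were not limited to those that passed the filter on low counts, as all 41 did. CCAAT was in 18 (54.5%, against 37.5%) and TTTGAA in 2 (6.06%, against 18.3%). A match is a run of letters, and binding was not measured.

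The libraries of the lines held 23936922 counts (JB81), 23772111 (JB91), 20231284 (JB97), 13685421 (JB84), 12377675 (JB87), and 18999233 (JB93). Levels are given as CPM, which are counts per 1e6 counts after TMM scaling, and 3 counts corresponded to between 0.133 and 0.247 CPM. That floor covers counting error only. The lowest count of any of the 41 genes in a line was 18, for Xrcc3 in JB84. All BNC libraries were deeper than all NC libraries, and the part of depth in the differences was not tested.

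The 6 lines did not differ from each other evenly. The median absolute log2 ratio between genes was 0.0703 for JB81 and JB91 and 0.0986 for JB84 and JB93, whereas the 13 other pairs of lines lay between 0.294 and 0.646. The squared difference between the counts of a pair was in the median 2.22 and 3.14 times that of sampling for these close pairs, and 25.7 to 173 times for the others. The counts of a close pair differed by more than sampling noise, which repeat libraries or cultures of 1 line may also do, and whether the lines of a pair share an origin was not tested. They were kept separate as labelled, and results are also given for the pairs summed. A number before the line name, whose meaning is not given, is shared by JB81, JB84, and JB87 and another by JB91, JB97, and JB93, so that both pairs are split.

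Levels of the genes deleted in the mice were checked before the rest. Bap1 stood at 43.2, 44.1, and 38 CPM in JB81, JB91, and JB97 and at 61.5, 60.6, and 64.3 CPM in JB84, JB87, and JB93. The groups did not overlap (log2 fold change -0.57 ± 0.13, SE, n = 3 and 3, adjusted p = 0.039, edgeR), but transcript remained in BNC lines, and counts per gene do not show which exons it holds. Nf2 was at 88.3 to 123 CPM over all 6 lines and did not pass the test, and such counts say nothing of a deletion within the gene. Cdkn2a was at most 0.567 CPM and Cdkn2b at most 0.0515 CPM, and neither was tested. Ezh2, the methyltransferase of Polycomb complex PRC2, was at 153, 144, and 161 CPM in BNC lines and at 66.6, 102, and 62.4 CPM in NC lines, higher in all BNC lines, JB87 being the highest NC line (log2 fold change 0.99 ± 0.22, adjusted p = 0.0374, edgeR). Neither the Bap1 nor the Ezh2 call held in edgeR with the close pairs summed, or with the mean of a mitosis list described further on as a covariate (adjusted p = 0.0965 and 0.0981).

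Markers of the labelled cell type were not at a like level in all lines. Of 10 mesothelial markers, 9 were tested and 2 passed (Krt8 and Krt18, both lower in BNC lines), where 8.45% of all genes tested were called lower. Their summed level was 137, 137, and 949.7 CPM in JB81, JB91, and JB97 and 3188, 2662, and 3328 CPM in JB84, JB87, and JB93. In JB81 and JB91 the defining marker Msln was at 0.221 and 0.442 CPM, Krt18 was at 0 and 0.0442 CPM, and Wt1 was the most abundant marker at 132 and 131 CPM. The most abundant marker was Upk1b in JB97 (263 CPM) and Msln in JB84, JB87, and JB93 (2064, 901, and 2151 CPM). Calb2 was at 0 in all lines.

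Markers of other cells were read in the same way. The 8 leukocyte markers summed to 6.29, 6.59, and 4.22 CPM in BNC lines and 4.89, 4.7, and 5.31 CPM in NC lines, mostly Cd68 and Csf1r, with Cd3e at 0 in all lines and Ptprc at most 0.0824 CPM. Endothelial markers summed to 1.51, 1.64, and 7.88 CPM and 61.8, 53, and 60.6 CPM. Kdr was the most abundant of them in NC lines, and Pecam1 and Cdh5 were at most 0.258 CPM. Fibroblast markers summed to 6190.4, 6801, and 3691 CPM and 731, 3999.5, and 842 CPM, nearly all of it Col1a1, with Lum at or near 0. In bulk RNA, fewer cells of a type and less RNA per cell cannot be told apart, and the part of these markers in the repair gene results was not tested.

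Across the 41 repair genes, most were low in the NC lines JB84 and JB93 and high in the other 4 lines, the NC line JB87 included. JB84 and JB93 were both below every BNC line in 32 genes and both above in 3 (Rad51d, Xrcc5, and Prkdc). JB87 lay within the range of the BNC lines in 13 genes, above it in 11, and below it in 17. JB84 and JB93 were the 2 lowest of the 6 lines in 31 of the 41 genes (75.6%), against 31.5% of all genes tested. They were the 2 lowest in 7 of 7 genes with the E2F letters and in 19 of the 26 with a promoter but without the letters. This pattern was noticed in the data and has no test, and JB84 and JB93 are a close pair.

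**Figure D1:**
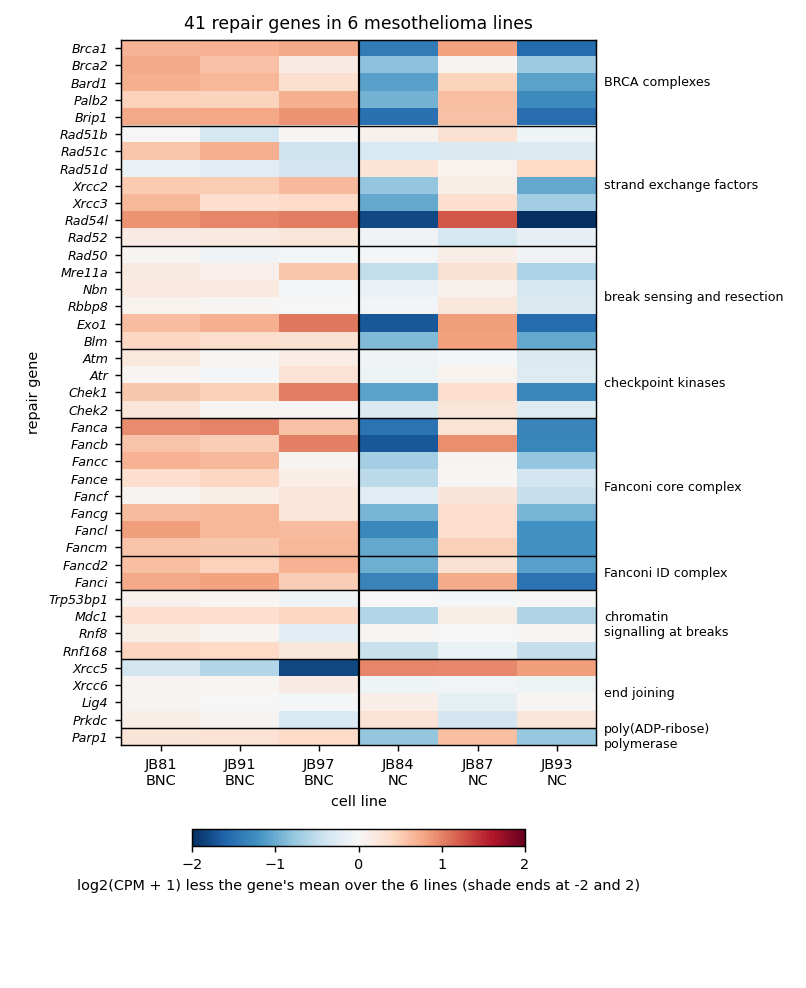
Heat map of the 41 repair genes (rows, grouped by role) in the 6 lines (columns). Shade gives log2(CPM + 1) less the gene's mean over the lines, from -2 (blue) to 2 (red). JB84 and JB93 are blue in most rows, JB87 resembles the BNC lines in most rows, and Xrcc5 is the row with all 3 NC lines strongly red.

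Between BNC and NC lines, edgeR's quasi-likelihood test called 1 of the 41 genes higher in BNC lines at an adjusted p-value under 0.05 (Rnf168), where 5.78% of all genes tested were called higher. It called 1 gene lower (Xrcc5), where 8.45% were called lower. None of the 41 passed an adjusted p-value under 0.01 with a change over 2-fold, which 1.1% of all genes did, and 12 had an unadjusted p-value under 0.05 , as did 35.6% of all genes. DESeq2 called 6 higher (Brca2, Xrcc2, Fanca, Fancc, Mdc1, and Rnf168), where it called 12.4% of all genes higher, and 1 lower (Xrcc5), where it called 14.7% lower. At the stricter threshold DESeq2 called 1 of the 41, and 13.8% of all genes.

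All BNC lines were above all NC lines in 15 of the 41 genes, and 20.1% of all genes had this order. All BNC lines were below all NC lines in 2 genes, Rad51d and Xrcc5, and 21.4% of all genes had that order. The median log2 fold change was 0.68 over the repair genes and -0.0023 over all genes tested, and 35 of the 41 values were above 0.

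Leaving out JB87 changed these counts most. Without it edgeR called 25 of the 41 genes higher, against 26.5% of all genes, and 2 lower (Rad51d and Xrcc5), against 25.5% of all genes. All BNC lines were then above both NC lines in 32 of the 41 genes, an order found in 37.2% of all genes, and below both in 3, an order found in 38% of all genes. The NC group was then the close pair JB84 and JB93 alone. With JB81 and JB91 summed, and JB84 and JB93 summed, edgeR called none of the 41 or of all genes tested, and the median of the 41 was 0.56. Within JB81, JB84, and JB87, which share a leading number, the median difference in log2(CPM + 1) between BNC and NC lines was 0.58. Within JB91, JB97, and JB93 it was 0.98, with 36 of the 41 genes of the same sign in both. Both close pairs, JB81 with JB91 and JB84 with JB93, are split between these sets of lines, so the sets are not independent. The share of all genes with the same sign was not computed.

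Among the BRCA complexes none of the 5 genes was called by edgeR, which called 5.78% of all genes higher and 8.45% lower. JB84 and JB93 were the 2 lowest lines in all 5, against 31.5% of all genes. These complexes act on resected DNA. Brca1, the ligase that directs this step, was at 66.2, 67.3, and 70.3 CPM in JB81, JB91, and JB97 and at 15.1, 72.8, and 13.5 CPM in JB84, JB87, and JB93. JB87 was the highest of the 6 lines while JB84 and JB93 were far below, and the log2 fold change was 1.01 ± 0.67 (SE, n = 3 and 3, adjusted p = 0.317, edgeR).

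Bard1, which forms the ligase with Brca1, was at 30.7, 29.5, and 23.1 CPM in BNC lines and at 8.07, 25.4, and 8.2 CPM in NC lines. JB87 lay among the BNC lines, and the log2 fold change was 1.0 ± 0.5 (adjusted p = 0.198, edgeR). Palb2, the bridge between Brca1 and Brca2 and the gene with the third lowest level per length of the 41 (mean 1.01 CPM per kilobase of exon), was at 9.21, 9.15, and 11.2 CPM against 2.85, 10.2, and 2.07 CPM. Again JB87 lay among the BNC lines (log2 fold change 0.97 ± 0.63, adjusted p = 0.303, edgeR).

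Brca2, a mediator of strand invasion, was at 61.3, 54.3, and 40.3 CPM in BNC lines and at 19.9, 37.6, and 21.3 CPM in NC lines. All NC lines were below all BNC lines, JB87 close to JB97, with a log2 fold change of 0.99 ± 0.31 (adjusted p = 0.0789, edgeR). The helicase Brip1, which binds Brca1, was at 40.8, 41.1, and 45.3 CPM against 7.8, 36.3, and 7.57 CPM. All NC lines were below here too, JB87 by little, and the log2 fold change of 1.31 ± 0.65 did not pass (adjusted p = 0.2, edgeR). The promoters of Bard1, Brip1, and Brca2 are those shown above with E2F letters.

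Among the 7 strand exchange factors, JB84 and JB93 were the 2 lowest lines in 3, against 31.5% of all genes. None of the 7 was called by edgeR, where it called 5.78% of all genes higher and 8.45% lower. Xrcc2, which assists strand invasion, was at 23.6, 23.4, and 25.9 CPM in BNC lines and at 9.09, 17.8, and 7.48 CPM in NC lines. JB87 lay between the other NC lines and the BNC lines (log2 fold change 1.09 ± 0.35, adjusted p = 0.0868, edgeR). Rad51d, which acts in a complex with Xrcc2, was at 19.2, 17.9, and 16 CPM against 25.6, 22.2, and 28.3 CPM. Here all NC lines were above all BNC lines, and the log2 fold change was -0.52 ± 0.17 (adjusted p = 0.0929, edgeR).

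Rad51b, of the same complex, had the second lowest level per length (mean 0.379 CPM per kilobase) and was at 1.42, 0.884, and 1.44 CPM in BNC lines and 1.56, 1.98, and 1.25 CPM in NC lines. The groups overlapped (log2 fold change -0.35 ± 0.37, adjusted p = 0.515, edgeR). The translocase Rad54l had the widest gap between BNC lines and the close NC pair, at 25.6 to 27.9 CPM in BNC lines, 3.05 CPM in JB84, 1.83 CPM in JB93, and 32.5 CPM in JB87. Rad52, an annealing factor, was lower in all NC lines, JB87 the lowest, and Rad51c and Xrcc3 had overlapping groups, with adjusted p-values of the 3 genes between 0.181 and 0.22 (edgeR).

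The 6 genes of break sensing and resection had overlapping groups throughout, and edgeR called none. Among all genes, 20.1% had all BNC lines above all NC lines and 21.4% had them below. edgeR called 5.78% of all genes higher and 8.45% lower. Nbn, a subunit of the sensing complex with the second highest level per length (mean 16.9 CPM per kilobase), was at 48.5, 48.7, and 41.8 CPM in BNC lines and at 38.3, 45.2, and 33.6 CPM in NC lines. JB87 lay among the BNC lines and the log2 fold change was 0.25 ± 0.16 (adjusted p = 0.311, edgeR). Of its partners, Rad50 was at 74.4 to 86.2 CPM in all lines while Mre11a was at 45.3 and 41.2 CPM in JB84 and JB93 and at 68.8 to 94.6 CPM elsewhere. Rbbp8, which starts resection, was at 40.9 to 58.9 CPM. The exonuclease Exo1 had a wider gap, at 6.31 and 7.19 CPM in JB84 and JB93 and at 35.5 to 48.5 CPM in the other 4 lines. For the helicase Blm these values were 15.8 and 14.2 CPM and 37.4 to 53.6 CPM.

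Among the 4 checkpoint kinases, which halt the cycle after damage, JB84 and JB93 were the 2 lowest lines in each. This order held in 31.5% of all genes. Atm, which responds to double-strand breaks, was at 91.3, 81, and 87.1 CPM in BNC lines and at 74.6, 76.5, and 64.3 CPM in NC lines. All BNC lines were above, with a log2 fold change of 0.27 ± 0.13 (adjusted p = 0.202, edgeR). Chek1, the effector of Atr, was at 33.5, 31.8, and 47 CPM against 10.3, 28.9, and 8.59 CPM. JB87 lay just below the BNC lines (log2 fold change 1.24 ± 0.5, adjusted p = 0.137, edgeR). Atr, at 50.8 to 74.7 CPM, and Chek2, at 13.9 to 20.8 CPM, had overlapping groups.

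The Fanconi core complex is the ligase that marks Fancd2 and Fanci at a crosslink. JB84 and JB93 were the 2 lowest lines in all 8 of its genes among the 41, against 31.5% of all genes. Of its subunits outside the 41, Faap24 and Faap100 had this order and Faap20 did not. All BNC lines were above all NC lines in 5 of the 8 (Fanca, Fancc, Fance, Fancl, and Fancm), an order that 20.1% of all genes had. An unadjusted p-value under 0.05 was found in 4 of the 8, against 35.6% of all genes. None of the 8 passed with edgeR, which called 5.78% of all genes higher and 8.45% lower. Fanca, with the largest log2 fold change of the 41 genes toward higher levels in BNC lines, was at 75.5, 78.3, and 58.5 CPM in BNC lines and at 13.3, 46.9, and 14.9 CPM in NC lines. JB87 lay between the other NC lines and the BNC lines, and the log2 fold change was 1.5 ± 0.52 (adjusted p = 0.0995, edgeR).

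Fancl, the catalytic subunit, was at 23.4, 20.7, and 20.3 CPM in BNC lines and at 4.61, 16.4, and 4.92 CPM in NC lines. JB87 was again the highest NC line (log2 fold change 1.32 ± 0.53, adjusted p = 0.137, edgeR). The log2 fold changes of the other core genes among the 41 ran from 0.33 (Fancf) to 1.03 (Fancg). Fancd2, a substrate of the complex, was at 44.3, 40.5, and 47.7 CPM against 14.2, 36.1, and 13.1 CPM. The groups did not overlap, JB87 lying just below the BNC lines (log2 fold change 1.07 ± 0.42, adjusted p = 0.128, edgeR). Its partner Fanci was at 7.73 and 6.85 CPM in JB84 and JB93 and at 30.0 to 37.5 CPM in the other lines. Of the 41 genes, 17 overlap another gene in the annotation (Bard1, Palb2, Brip1, Xrcc3, Rad54l, Mre11a, Blm, Atr, Fanca, Fancc, Fancf, Fancl, Fancd2, Fanci, Trp53bp1, Rnf8, and Xrcc6). Whether counting used strand is not given. In Bard1, Fancc, Fancl, and Rnf8 an overlapping gene lies on the same strand, so use of strand would not separate the 2 genes. The counts of the 17 genes are uncertain to that extent.

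Chromatin signalling at breaks held the gene that was called higher. Rnf168, the ubiquitin ligase that marks histone H2A around a break, lies on chromosome 16 (GRCm38, 32277459 to 32301434, plus strand) and overlaps no other gene. It was at 73.2, 71.5, and 63.4 CPM in BNC lines, 69.4 ± 5.25 (SD, n = 3), and at 39.4, 48.9, and 38.4 CPM in NC lines, 42.2 ± 5.85. All BNC lines were above all NC lines, JB87 being the highest NC line, and the log2 fold change was 0.72 ± 0.16 (adjusted p = 0.0362, edgeR). The call was lost with the close pairs summed (adjusted p = 0.499, edgeR) and without JB81, JB91, JB84, or JB93 (0.15 to 0.16). Over 16 alternative settings the adjusted p-value ran from 0.000861 to 0.499 and was under 0.05 in 6. The log2 fold change lay between 0.47 and 0.86, and was 0.63 with the close pairs summed, where none of all genes was called. Within the libraries that share a leading number the difference in log2(CPM + 1) was 0.72 and 0.8.

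Mdc1, the adaptor that binds marked chromatin upstream of Rnf168, was at 148, 148, and 156 CPM in BNC lines and at 77.6, 128, and 76.8 CPM in NC lines. All NC lines were below, JB87 the nearest (log2 fold change 0.68 ± 0.23, adjusted p = 0.0965, edgeR). Rnf8, the ligase that recruits Rnf168, had the lowest level per length of the 41 genes (mean 0.246 CPM per kilobase) and was at 3.19, 3.01, and 2.32 CPM against 2.92, 2.88, and 2.99 CPM. The groups overlapped (log2 fold change -0.046 ± 0.28, adjusted p = 0.917, edgeR). Rnf8 overlaps another gene on the same strand, and the part of this overlap in its low level was not tested. Trp53bp1, which protects ends from resection, was at 62.4 to 69.8 CPM over the 6 lines, also with overlapping groups.

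End joining held the gene that was called lower. Xrcc5, the larger Ku subunit, lies on chromosome 1 (GRCm38, 72307421 to 72394952, plus strand) and overlaps no other gene. It was at 17.5, 14.9, and 5.77 CPM in BNC lines, 12.7 ± 6.16 (SD, n = 3), and at 46.1, 45.2, and 41.5 CPM in NC lines, 44.3 ± 2.44. All 3 NC lines, JB87 included, were well above all BNC lines, of which JB97 was the lowest. The log2 fold change was -1.8 ± 0.41 (adjusted p = 0.04, edgeR).

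The Xrcc5 call was lost with the close pairs summed (adjusted p = 0.33, edgeR) and without JB81, JB91, JB84, or JB93 (0.105 to 0.139). Over the 16 settings the adjusted p-value ran from 0.000573 to 0.33 and was under 0.05 in 7, and the log2 fold change lay between -2.08 and -1.45. Within the libraries that share a leading number the difference in log2(CPM + 1) was -1.33 and -2.03. Xrcc5 was the 1 gene of the 41 in which JB87 lay more than 1 log2 unit from the BNC mean.

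Xrcc6, which forms the Ku ring with Xrcc5 and had the third highest level per length (mean 16.7 CPM per kilobase), was at 77.2, 76.9, and 83.4 CPM in BNC lines and at 70.0, 72.1, and 69.2 CPM in NC lines. The groups did not overlap, but the log2 fold change was 0.17 ± 0.12 (adjusted p = 0.329, edgeR). The ligase Lig4, at 18.5 to 23 CPM, and the kinase Prkdc, at 35.4 to 56.9 CPM, had overlapping groups. Parp1, the polymerase that senses strand breaks, had the highest level per length of the 41 genes (mean 25.1 CPM per kilobase). It was at 148, 152, and 163 CPM in BNC lines and at 72.1, 189, and 73.2 CPM in NC lines. JB87 was the highest of the 6 lines and JB84 and JB93 the lowest (log2 fold change 0.47 ± 0.4, adjusted p = 0.423, edgeR).

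**Figure D2:**
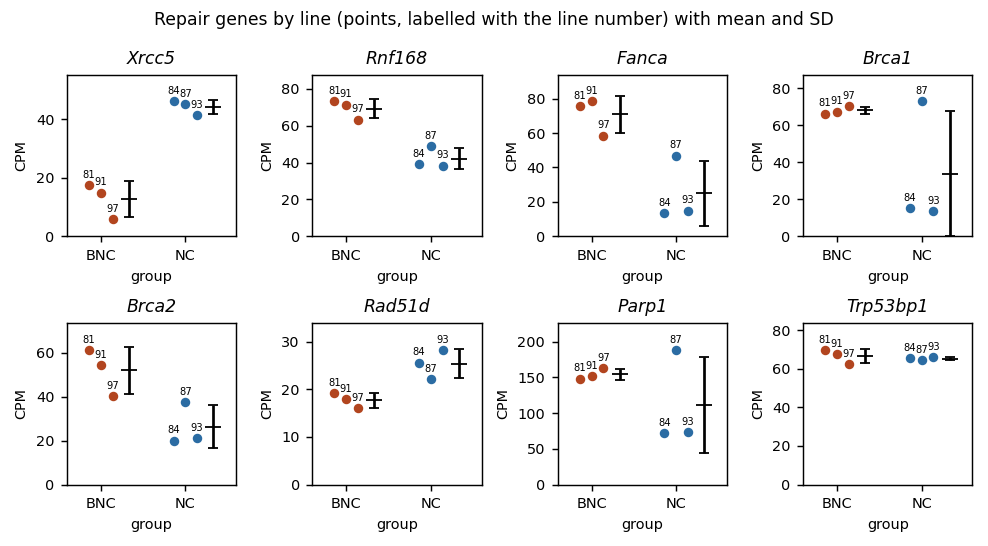
CPM of 8 repair genes in BNC (red) and NC (blue) lines. Points are lines, labelled with the line number, and bars give the mean and SD of 3 lines, on axes that start at 0. In Xrcc5 and Rnf168 the 3 NC lines lie together and apart from the BNC lines, whereas in Brca1 and Parp1 JB87 lies above the BNC lines and JB84 and JB93 below.

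The repair genes were then set against lists that follow cell division. The mean log2(CPM + 1) of 27 mitosis genes was 7.7, 7.71, and 7.57 in JB81, JB91, and JB97 and 5.99, 7.55, and 5.97 in JB84, JB87, and JB93. That of 32 DNA replication genes was 6.42, 6.43, and 6.52 and 4.41, 6.46, and 4.38. That of the 41 repair genes was 4.96, 4.91, and 4.85 and 3.97, 4.86, and 3.91. All 3 lists were thus low in JB84 and JB93 and near the BNC lines in JB87.

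JB84 and JB93 were the 2 lowest lines in all 27 mitosis genes and all 32 replication genes, against 31.5% of all genes. The median log2 fold change was 0.94 for mitosis and 1.0 for replication. edgeR called none of these genes, where it called 5.78% of all genes higher and 8.45% lower. Before adjustment 7 and 1 were under 0.05, where 35.6% of all genes were. DESeq2 called 5 and 0, all 5 higher in BNC lines, where it called 12.4% of all genes higher. The mitosis genes with the smallest p-values were Nusap1, a spindle protein (0.79 ± 0.22, adjusted p = 0.0613, edgeR), and Kif20a, a kinesin of cell division (0.94 ± 0.27, adjusted p = 0.0677, edgeR). For replication they were the GINS subunits of the replicative helicase, Gins3 (1.13 ± 0.44, adjusted p = 0.127, edgeR) and Gins4 (0.63 ± 0.26, adjusted p = 0.141, edgeR).

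**Figure D3:**
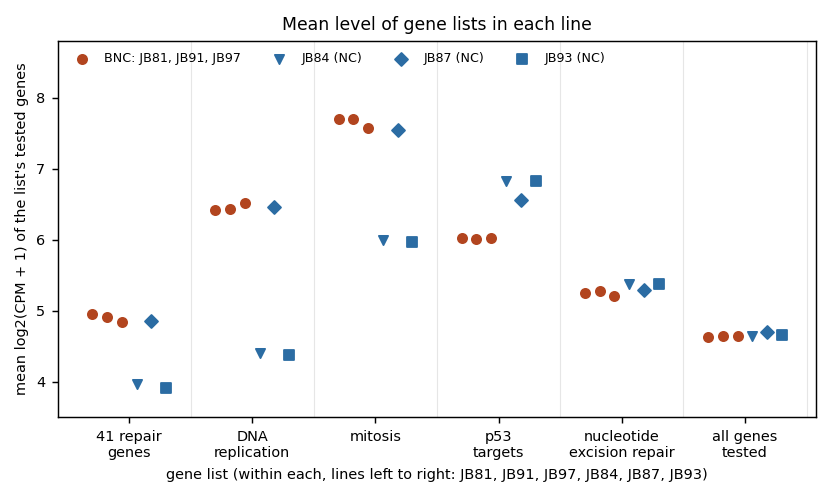
Mean log2(CPM + 1) of the tested genes of 6 lists (x axis) in each line, with BNC lines in red and NC lines in blue. The repair, replication, and mitosis lists are low in JB84 and JB93 and not in JB87, whereas p53 targets are higher in all 3 NC lines.

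Against each NC line on its own, the median difference of the BNC mean over the 41 genes was 0.95 for JB84 and 0.96 for JB93, with 35 genes above 0 for each. Against JB87 it was 0.11, with 24 genes above 0. In 20 genes the BNC mean was more than 1 log2 unit above both JB84 and JB93. Against JB87, 4 genes differed by more than 0.5 units in either direction, Rad51c, Rad52, Fanca, and Xrcc5. Each comparison uses 1 NC line and has no test, and they share the BNC lines.

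**Figure D4:**
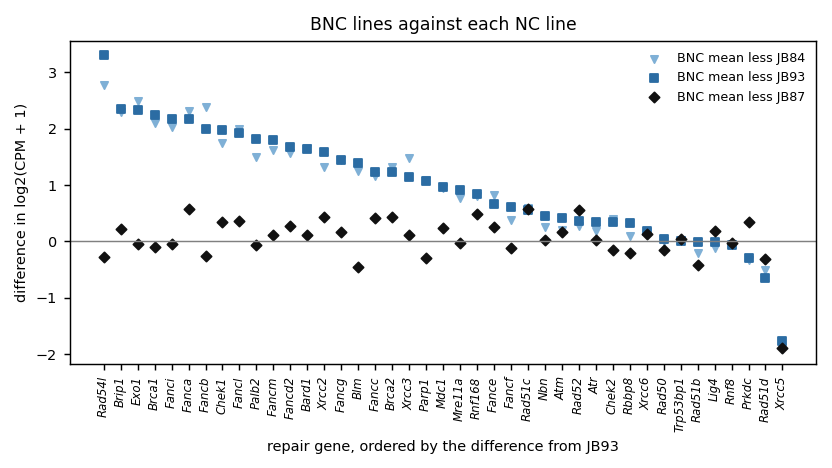
Difference in log2(CPM + 1) between the mean of the 3 BNC lines and each NC line (y axis), for the 41 repair genes ordered by the difference from JB93 (x axis). Differences from JB84 and JB93 run together up to 3.3 (Rad54l, JB93), and those from JB87 lie between -0.46 and 0.57 except in Xrcc5, where all 3 lie between -1.9 and -1.76.

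With the mean of the mitosis list as a covariate, edgeR called none of the 41 genes, while it called 5.16% of all genes tested, and 5 of the 41 were under 0.05 before adjustment (24.7% of all genes). The median log2 fold change of the 41 genes was then 0.032. The sign turned in 14 of the 41 genes, 13 of them from higher to lower in BNC lines. Rad54l went from 1.12 to -0.5, Blm from 0.48 to -0.59, and Fancb from 0.95 to -0.35. Brca1 (-0.24), Palb2 (-0.16), Parp1 (-0.37), and Bard1 (-0.0047) turned too, as did Mre11a, Rbbp8, Exo1, Chek2, Fancf, Fanci, and Prkdc, the last from lower to higher. Xrcc5 was at -1.91 ± 0.6 (adjusted p = 0.145, edgeR) and Rnf168 at 0.47 ± 0.13 (adjusted p = 0.117, edgeR). DESeq2 with the same covariate called 3 genes, Rnf168 higher and Blm and Xrcc5 lower, and 14.6% of all genes. The covariate mainly separates JB84 and JB93 from the rest, so a difference in dividing cells and another difference of this pair of lines cannot be told apart.

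Other repair genes were read for comparison. Of 27 further recombination and resection genes edgeR called 1, higher in BNC lines, where it called 5.78% of all genes higher. JB84 and JB93 were the 2 lowest lines in 20, against 31.5% of all genes, and the median log2 fold change was 0.8. Mus81, a nuclease that cuts joined strands, was at 28.7, 28.9, and 17.2 CPM in BNC lines and at 10.2, 13.5, and 11 CPM in NC lines. All NC lines were below, with a log2 fold change of 1.11 ± 0.27 (adjusted p = 0.0457, edgeR). The call was lost with the close pairs summed and with the mitosis mean as a covariate (0.81 ± 0.37, adjusted p = 0.258, edgeR). Slx4, the scaffold of such nucleases, had the next smallest p-value (0.83 ± 0.21, adjusted p = 0.0537, edgeR). With the mitosis mean as a covariate edgeR called 1 of the 27, Rpa1, where it called 5.16% of all genes. Rpa1 was then lower in BNC lines (-1.17 ± 0.2, adjusted p = 0.047, edgeR).

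Of 12 further Fanconi genes edgeR called 1, lower in BNC lines, where it called 8.45% of all genes lower, and the median was 0.28. Mad2l2, a subunit of translesion polymerase zeta and of the shieldin complex that guards ends, was at 6.2, 7.43, and 9.43 CPM in BNC lines and at 18.5, 26.1, and 21.8 CPM in NC lines. All NC lines were above, JB87 the highest (log2 fold change -1.53 ± 0.25, adjusted p = 0.0203, edgeR). This call was lost with the close pairs summed, and the adjusted p with the mitosis mean was 0.0431 (edgeR). With that covariate edgeR called 2 of the 12, where it called 5.16% of all genes. Mad2l2 was lower in BNC lines (-1.76 ± 0.28) and Rev3l was higher (0.82 ± 0.14, adjusted p = 0.0478, edgeR). Rfwd3, a ubiquitin ligase of the pathway, had a log2 fold change of 1.06 ± 0.28 (adjusted p = 0.0563, edgeR).

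Over all 6 lines and without a covariate, edgeR called no gene of the 5 remaining repair lists. It called 5.78% of all genes higher and 8.45% lower. With the mitosis mean as a covariate it called 1 gene, in mismatch repair, and 5.16% of all genes. The lists' counts under 0.05 before adjustment stand beside 35.6% of all genes. Those by DESeq2 stand beside the 12.4% of all genes it called higher and the 14.7% it called lower. The 20 further checkpoint genes had a median log2 fold change of 0.39 (3 genes under 0.05 before adjustment, 2 called by DESeq2), led by the kinase Wee1 (0.96 ± 0.32) and the deubiquitinase Usp28 (-0.61 ± 0.2). The 11 further end joining genes had a median of -0.17 (2 before adjustment, 1 by DESeq2), led by the polymerase Polm (-0.69 ± 0.23) and the nuclease Dclre1c (-0.87 ± 0.32). The 20 tested of 21 base excision genes had a median of 0.31 (2 before adjustment, 1 by DESeq2), led by the glycosylases Neil3 (2.19 ± 0.75) and Ogg1 (0.4 ± 0.16).

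The 19 nucleotide excision genes had a median of -0.015 (6 before adjustment, against 35.6% of all genes, and 2 by DESeq2, both lower in BNC lines), led by the damage sensor Xpc (-1.11 ± 0.35) and the translocase Ercc6 (0.52 ± 0.17), and JB84 and JB93 were the 2 lowest lines in 6 of them. The 7 mismatch repair genes had a median of 0.16 (3 before adjustment, 2 by DESeq2), led by Mlh3 (-1.38 ± 0.38) and Msh3 (0.82 ± 0.27), and JB84 and JB93 were the 2 lowest in 4.

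The p53 targets, which are induced when damage is signalled, were higher in JB87 as well as in JB84 and JB93. Of 17 genes, 7 were called lower in BNC lines by edgeR (Pmaip1, Plk2, Mdm2, Btg2, Aen, Cdkn1a, and Zmat3) and none higher, where 8.45% of all genes were called lower. The median was -0.75, and DESeq2 called 10 lower, against 14.7% of all genes. The mean log2(CPM + 1) of the list was 6.02, 6.01, and 6.02 in BNC lines and 6.82, 6.56, and 6.83 in NC lines. Pmaip1, a killer protein of the Bcl-2 family, was at 7, 5.75, and 15.3 CPM in BNC lines and at 67.4, 53.7, and 59 CPM in NC lines. The groups lay far apart (log2 fold change -2.69 ± 0.41, adjusted p = 0.0167, edgeR). Plk2, a kinase, had a log2 fold change of -0.92 ± 0.16 (adjusted p = 0.0231, edgeR). These calls too were lost with the close pairs summed, and with the mitosis mean as a covariate edgeR called 1 of the 17 and the median was -0.41.

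In the 9 tumors, scaled together with the lines as 15 libraries, the tumor median was below the line median in 36 of the 41 repair genes and above it in 5 (Rad52, Fancc, Fance, Fancg, and Rnf8). In Rad52 and Rnf8 it was above the highest line, and in 30 genes it was below the lowest line. The shares of all genes tested with these orders of the medians were not computed. The columns were taken as tumors because they carry no line name and a leading number of their own, and because some of their B numbers recur among tumor DNA libraries, while 1 column carries no B number. Their libraries held 8158740 to 21851974 counts, and in tumor B1 24.7% of counts fell on 1 gene, Gm42418. The mean log2(CPM + 1) of the 41 genes was 2.98 in the lowest tumor, 3.14 in the median, and 3.75 in the highest, against 3.83 to 4.86 in the lines. That of the mitosis list was 2.63, 4.47, and 6.12, against 5.88 to 7.61. Both lists were highest in the unnumbered tumor and in B28. Leukocyte markers averaged 4.44 to 6.55 in tumors and 0.38 to 0.54 in lines. Endothelial markers averaged 3.99 to 6.5 in tumors and 0.39 to 1.71 in lines, and fibroblast markers 8.47 to 10.36 in tumors and 4.1 to 5.71 in lines. The part of other cells in the tumor levels was not tested.

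Every tumor was below every line in 17 of the 41 genes, against 11.3% of all genes tested, and every tumor was above every line in 1, Rnf8, against 7.79% of all genes. Brca1 was at 2.06, 8.4, and 23.6 CPM in the lowest, median, and highest tumor, against 12.7 to 68.3 CPM in lines. Xrcc5 was at 9.4, 18.3, and 32.6 CPM, within the range of 5.61 to 42.7 CPM in lines. Rnf168 was at 12.8, 21.8, and 25.5 CPM and so below all lines (36 to 68.3 CPM). Rnf8 was at 4.59, 6.81, and 10.3 CPM, against 2.25 to 2.98 CPM in lines. Without tumor B1 the medians of these 4 genes were 8.49, 18.7, 22, and 6.38 CPM.

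**Figure D5:**
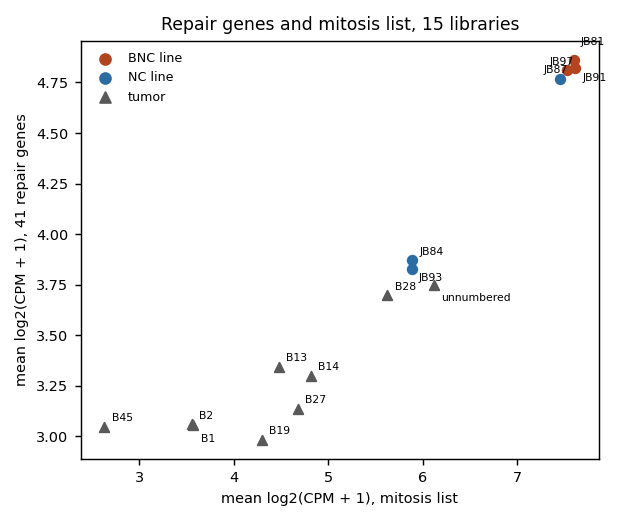
Mean log2(CPM + 1) of the 41 repair genes (y axis) against that of the mitosis list (x axis) in 15 libraries, with BNC lines in red, NC lines in blue, and tumors as grey triangles. JB87 lies with the BNC lines, and JB84 (3.87) and JB93 (3.83) lie beside the unnumbered tumor (3.75) and B28 (3.7).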

How the data were processed

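Poly-A-enriched RNA was sequenced as 65-base single-end reads. The authors mapped reads to mm10 with TopHat2 2.0.12, per the submitters' processing notes, discarded reads of low mapping quality, and deposited HTSeq counts per gene, not normalized. Use of strand in counting is not given in the sources used here. Columns were placed in groups by line name, as headed in the study's tables. The DNA copy number table, with 14 columns of per-sample log2 values, was not used. A leukocyte marker of the planned list is not reported here.

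Counts were analysed with edgeR 4.0.16 (R 4.3.3) using filterByExpr (minimum count 10), TMM scaling, the quasi-likelihood test, and Benjamini-Hochberg adjustment over all genes tested. DESeq2 1.42.0 was an alternative. List means used log2(CPM + 1). The code was tested on simulated data. Coordinates and exon lengths came from the GENCODE annotation of GRCm38, and 98.5% of identifiers had a symbol. Line libraries held 12377675 to 23936922 counts.

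The members and lists were chosen with earlier results of these data known. Full values are given for repair genes called, the 6 with the smallest p-value, the 3 largest changes in each direction, the 3 highest and 3 lowest levels per length, and Brca1, Brca2, Bard1, Palb2, Atm, Chek1, Fancd2, and Parp1. From each other list the 2 genes with the smallest p-value, the targeted genes, Ezh2, and the most abundant markers are given. Other genes were named after their values were seen. Alternatives were DESeq2, library size scaling, no filter, 10 counts in every line, replicate blocks, the leading number of the library name, summed pairs, the mitosis mean, and leaving out each line.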

Additional observations from a re-analysis of the deposited data

Results flagged for a closer look

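In 2 repair genes 1 of the 9 tumors stood apart from the others by Dixon's criterion, which chance meets in about 1 of 20 groups, and 41 genes were examined. Rad51c, a strand exchange factor, was highest in tumor B27, at 2.81 on the log2(CPM + 1) scale, where the next tumor was at 1.72. Rad54l, the translocase, was lowest in tumor B45, at 1.33, where the next was at 2.26.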

How the results depend on the processing

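Over all genes tested, edgeR called 5.78% higher in BNC lines and 8.45% lower, and DESeq2 called 12.4% and 14.7%. Without JB87 edgeR called 26.5% and 25.5%. Of the 41 repair genes, 2 were called at an adjusted p-value under 0.05 by edgeR. This count was 7 with DESeq2, 1 without a filter, and 0 with the number before the line name as a covariate, with the close pairs summed, or with the mitosis mean as a covariate. Leaving out each line gave 0 to 27, with 27 without JB87, 3 without JB97, and 0 without any 1 of the others. At the stricter threshold the count was 0, 1 with DESeq2, and 0 to 19 when lines were left out (19 without JB87, where 2574 of all genes passed, and 1 without JB97, where 984 did). The number of genes whose groups did not overlap was 17, and 17 to 35 when lines were left out (35 without JB87). All BNC lines were above all NC lines in 20.1% of all genes and below in 21.4%. Without JB87 these shares were 37.2% and 38%. The median log2 fold change of the repair genes was above 0 in each setting for which it was computed, at 0.032 with the mitosis mean in edgeR and at 0.52 to 0.98 when lines were left out. It was not computed for DESeq2 with the mitosis mean.

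With JB97 taken as number 3, same-numbered lines had deviations from their group means that correlated at 0.12, -0.084, and -0.092. Because JB81 and JB91, and JB84 and JB93, are close pairs, these values depend on each other. They cannot decide whether the replicate numbers pair the samples. With the replicate number as a block, by either numbering of JB97, 0 repair genes were called, and 0 or 464 of all genes.

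Over all genes, the 1761 calls became 3913 with DESeq2, 1108 with 10 counts in every line, 272 with the number before the line name, 0 with pairs summed, 639 with the mitosis mean, and 15 to 6800 when lines were left out (16 without JB81, 15 without JB91, 3305 without JB97, 49 without JB84, 6800 without JB87, 54 without JB93). The 136 at the stricter threshold became 1999 with DESeq2. Scaling by library size moved the median of all genes from -0.0023 to -0.14, and that of the repair genes was then 0.55.

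Signs turned with the mitosis mean in 14 of the 41 genes, among them Parp1 (-0.37), Palb2 (-0.16), Brca1 (-0.24), and Bard1 (-0.0047) of those given in full, and with DESeq2 and the mitosis mean, chosen after seeing the data, for Parp1 (-0.33), Palb2 (-0.13), and Brca1 (-0.21). Rnf8 lay between -0.12 and 0.084 when lines were left out, above 0 without JB97. The cause of these changes was not tested. Every repair gene had at least 18 counts in each line.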

Other observations

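Genes within 1 Mb of the called repair genes were examined after their values were seen. Around Xrcc5, 8 genes were tested and edgeR called 2, where it called 5.78% of all genes higher and 8.45% lower. Pecr, a peroxisomal reductase, was at 2.83, 1.86, and 4.28 CPM in BNC lines and at 25.2, 10.8, and 25.6 CPM in NC lines (log2 fold change -2.78 ± 0.49, adjusted p = 0.0227, edgeR). Igfbp5, an IGF binding protein, was at 45.7, 52.8, and 1.13 CPM in BNC lines and at 0.0678, 0.0824, and 0 CPM in NC lines, where all values were under the floor of 3 counts (adjusted p = 0.0298, edgeR). Mreg was at 1.15, 1.06, and 2.16 CPM against 6.11, 2.55, and 7 CPM and did not pass (adjusted p = 0.0631, edgeR). Of the others not called, Smarcal1 was lower in all BNC lines. Igfbp2 was higher in all BNC lines (log2 fold change 4.37, adjusted p = 0.205, edgeR). Atic, Fn1, and Rpl37a had overlapping groups. The median log2 fold change of the 8 genes was -0.17. Around Rnf168, 21 genes were tested, 2 were called, both lower in BNC lines (Pcyt1a and Rpl35a), and the median was -0.065.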
